A study of Mus musculus with 77 samples.

Results

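The 10 transporter genes described here are Slc2a1, Slc16a1, Slco1a4, Slco1c1, Slc7a5, Slc22a8, Slc38a5, Abcb1a, Abcg2 and Mfsd2a, a set named for the transport work of the blood-brain barrier and matched by gene symbol. All 10 were found among the 52636 genes of each of the 5 count tables. The 77 libraries came from cerebral white matter of mice, and each carries a cell type label and either control or stroke. The EC libraries comprise 5 control and 7 stroke samples, the pericyte libraries 7 and 8, and the OPC and astrocyte libraries 6 and 6 each. Microglia were sampled as P2 in control (8) and stroke (9) and as P4 in stroke alone (9). Strain, age, sex, how the stroke was made, the time after it, the way cells were isolated and the meanings of EC, OPC, P2 and P4 have no entry in the labels used here. Nothing in the labels tells whether each library is its own animal, and every p-value below reflects variation between these libraries alone, which may in part be technical.

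Endothelial cells of brain vessels are joined so tightly that nutrients must cross them through carriers, while efflux pumps on the blood side return many drugs and toxins. Slc2a1 (GLUT1) carries glucose, Slc16a1 (MCT1) lactate, pyruvate and ketone bodies, Slc7a5 (LAT1) large neutral amino acids and Slc38a5 glutamine and related amino acids. Mfsd2a carries lysophosphatidylcholine that bears docosahexaenoic acid and restrains transcytosis in brain endothelium. Slco1a4, Slco1c1 (OATP1C1, a thyroxine carrier) and Slc22a8 (OAT3) carry organic anions. Abcb1a (P-glycoprotein) and Abcg2 (breast cancer resistance protein) are ATP-driven efflux pumps.

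The cell type labels were compared with marker genes. In EC controls the 14 endothelial markers summed to 2963 ± 681 CPM (counts scaled to a common library size, mean ± SD, n = 5), against 511 ± 125 in pericyte controls (n = 7) and 45.6 ± 6.67 in OPC controls (n = 6). The same EC controls held 13970 ± 3504 CPM of 12 mature oligodendrocyte markers and 9113 ± 1398 CPM of 12 neuron markers. They also held 3474 ± 943 CPM of 12 astrocyte markers. OPC controls held 14462 ± 886 CPM of 12 OPC markers beside 108137 ± 5819 CPM of mature oligodendrocyte markers. Pericyte markers reached 12825 ± 4779 CPM in pericyte controls, and astrocyte and microglia markers were highest in their own tables. In pericyte control 6 the pericyte markers were lowest, at 4455 CPM, and ependymal and choroid plexus markers summed to 5236 CPM, against 20.0 to 80.8 in the other 6 pericyte controls. In the 8 pericyte stroke libraries the ependymal and choroid plexus markers ran from 53.0 to 2066 CPM (median 79.5). Total counts ran from 43367636 to 142944063 in the tables other than microglia, and from 5530125 to 11770194 in microglia. A library here is a mixture of cells, so that fewer cells of a type and less RNA per cell cannot be told apart, and cell type cannot be told apart from count table.

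Promoter sequences of 3 members are shown as examples of genes that moved in opposite directions in pericyte libraries after stroke (values below). Their RefSeq start lies within 34 bases of the GENCODE gene start. Slc16a1 and Slco1c1, which are not printed, were also called in pericytes and lie within that distance. Each runs from 250 bases before to 50 bases after the RefSeq start on GRCm38.p6, 5′ to 3′ on the gene's own strand. Capitals mark matches to the core of the hypoxia-inducible factor motif, ACGTG or GCGTG, searched on both strands and with overlapping matches counted separately, so that CACGC is the second of these on the other strand.
Slc2a1, chr4:119108495-119108794, plus strand: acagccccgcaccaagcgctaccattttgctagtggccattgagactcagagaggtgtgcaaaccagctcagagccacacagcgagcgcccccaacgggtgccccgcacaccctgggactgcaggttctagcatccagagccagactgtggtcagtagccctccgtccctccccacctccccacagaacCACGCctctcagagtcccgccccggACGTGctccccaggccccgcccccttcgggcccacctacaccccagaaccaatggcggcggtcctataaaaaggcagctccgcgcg
Slco1a4, chr6:141856171-141856470, minus strand: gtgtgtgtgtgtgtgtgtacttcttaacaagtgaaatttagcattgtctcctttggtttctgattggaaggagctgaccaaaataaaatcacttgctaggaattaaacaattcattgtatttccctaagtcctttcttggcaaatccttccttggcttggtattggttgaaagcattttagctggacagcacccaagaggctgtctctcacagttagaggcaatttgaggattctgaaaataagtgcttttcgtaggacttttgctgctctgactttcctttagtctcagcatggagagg
Mfsd2a, chr4:122961139-122961438, minus strand: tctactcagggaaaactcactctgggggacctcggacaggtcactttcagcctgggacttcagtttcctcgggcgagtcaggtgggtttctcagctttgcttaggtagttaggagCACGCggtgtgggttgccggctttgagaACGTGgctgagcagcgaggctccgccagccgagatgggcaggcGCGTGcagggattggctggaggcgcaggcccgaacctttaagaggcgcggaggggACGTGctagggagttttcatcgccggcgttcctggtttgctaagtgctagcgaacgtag

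The Slc2a1 window holds 2 core matches, first bases at -61 and -36 from the start, and the Mfsd2a window holds 4, at -135, -107, -64 and -9. The Slco1a4 window holds 0. Among called members not printed, the windows of Slc16a1, Slc38a5 and Abcb1a (higher) hold 5, 2 and 0 matches, and that of Slco1c1 (lower) holds 2. The RefSeq start of Abcb1a lies 92986 bases from its GENCODE gene start, and that of Slc38a5 248 bases. The 0 of Abcb1a therefore does not describe the sequence at its GENCODE start. A core match is common: 43.8% of 32851 promoter windows of this length hold at least 1. RefSeq windows were found for 9 of the 10 members, Slc7a5 being the exception. A gene that rose and a gene that fell thus both carry the letters, and a match is a description of the window.

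In control libraries, 7 of the 10 members had their highest mean in EC, and 3 did not. CPM here and below were scaled within each cell type, so levels and ranges of different types are not on a common scale. The edgeR fit of all controls, given below, scaled them together. The exceptions were Slc22a8, highest in pericytes, Mfsd2a, highest in OPC, and Slc16a1, which was highest in astrocytes with ranges that overlapped those of EC. Per kilobase of exon, the most abundant member was Slc2a1 in EC (248 CPM per kb), Slc22a8 in pericytes (109), Mfsd2a in OPC (121), Slc16a1 in astrocytes (41.8) and Slc2a1 in microglia (32.4). EC control levels per kilobase ran from 16.3 for Abcb1a to 86.4 for Slc7a5 among the other members. The heat map of control levels shows these values.

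**Figure D1:**
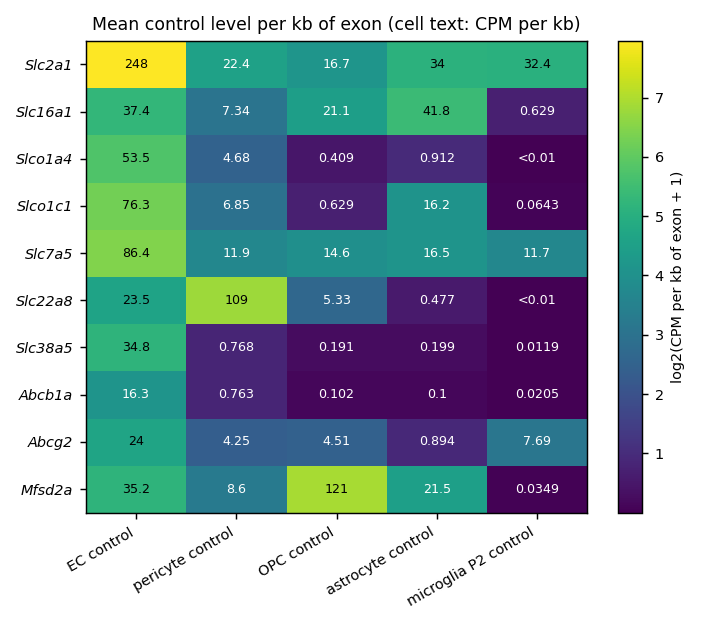
Mean level of the 10 transporter genes (rows) in the control libraries of each cell type (columns), as CPM per kb of exon, with colour on a log2(value + 1) scale. CPM were scaled within each cell type. Slc2a1 in EC (248), Mfsd2a in OPC (121) and Slc22a8 in pericytes (109) stand highest, and the microglia column is near 0 for 6 of the 10 genes.

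Slc2a1, on chromosome 4 (GRCm38 119108711 to 119137983, plus strand), stood at 745, 1014, 846, 792 and 943 CPM in the 5 EC controls. In pericyte controls it ran from 65.4 to 105 CPM (median 70.4), in OPC controls from 54.6 to 64.1 (57.8), in astrocyte controls from 91.4 to 130 (123) and in microglia P2 controls from 19.3 to 266 (96.5). Every EC control was above every control of the other types. A single edgeR quasi-likelihood fit of the 32 control libraries placed EC above pericytes by 3.64 ± 0.37 on the log2 scale (SE, adjusted p = 1.73e-08), above OPC by 3.62 ± 0.39 (3.03e-08), above astrocytes by 2.63 ± 0.38 (7.98e-06) and above microglia by 2.96 ± 0.34 (7.28e-09). Below EC, the ranges of astrocyte and pericyte controls overlapped, and microglia controls spanned all of the other types.

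Over all members, that fit called EC higher than pericytes for 9 and lower for 1, against a background of 23.0% of 24172 genes called in either direction (8.56% higher, 14.4% lower). EC was higher than OPC for 8 and lower for 1 (background 23.0%, with 14.6% higher and 8.39% lower). It was higher than astrocytes for 6 and lower for 0 (11.5%, with 5.74% and 5.72%), and higher than microglia for all 10 (69.5%, with 41.5% and 28.0%). The members not called were Slc16a1 against OPC, and Slc16a1, Slco1c1, Slc7a5 and Mfsd2a against astrocytes, with adjusted p from 0.0544 to 0.865. The EC and pericyte contrast of Slc16a1 (adjusted p = 0.044) and the EC and OPC contrast of Slc7a5 (0.0429) each missed the threshold when any 1 EC control library was left out.

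Slc22a8, on chromosome 19 (GRCm38 8591254 to 8611835, plus strand), went the other way. It read 92.3, 131, 78.3, 57.9 and 98.8 CPM in the 5 EC controls, and 189 to 755 CPM with a median of 367 in pericyte controls. No pericyte control overlapped an EC control. The edgeR fit placed it 4.13-fold higher in pericytes (log2 difference, EC minus pericyte, -2.05 ± 0.46, adjusted p = 0.00165). OPC controls held 16.8 to 25.9 CPM, astrocyte controls 0.205 to 3.72, and the 8 microglia P2 controls 2 counts in all. The other renal organic anion transporter on the list of relatives, Slc22a6 (OAT1), was likewise at 144 CPM in pericyte controls and at 0 counts in EC controls. Fibroblast markers summed to 10687 ± 3490 CPM in pericyte controls and 2386 ± 654 CPM in EC controls, and their part in the Slc22a8 level was not tested.

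Mfsd2a, on chromosome 4 (GRCm38 122946850 to 122961188, minus strand), was highest in OPC. It ran from 170 to 322 CPM (median 289) in the 6 OPC controls and stood at 63.3, 108, 60.7, 71.7 and 92.3 CPM in the EC controls. The 2 ranges did not overlap, and the edgeR fit gave a level 4.13-fold higher in OPC (EC minus OPC -2.05 ± 0.41, adjusted p = 0.00034). Astrocyte controls, at 34.7 to 73.8 CPM, overlapped EC (0.48 ± 0.39, adjusted p = 0.525), and pericyte controls were lower at 5.74 to 25.7. Mature oligodendrocyte markers were also most abundant in OPC controls (values above), and their part in the Mfsd2a level was not tested.

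Slc16a1, on chromosome 3 (GRCm38 104638668 to 104658462, plus strand), did not separate EC from astrocytes. It measured 218, 186, 129, 128 and 168 CPM in EC controls and 128 to 246 CPM (median 182) in astrocyte controls, and the log2 difference, EC minus astrocyte, was -0.41 ± 0.94 (edgeR, adjusted p = 0.865). OPC controls followed at 75.1 to 109 CPM and pericyte controls at 21.4 to 46.3. In microglia it was counted in 2 of 8 P2 control libraries.

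The organic anion carriers Slco1a4 and Slco1c1 both lie on chromosome 6 (GRCm38 141805440 to 141856199 and 141524368 to 141570177) and differed in astrocytes. Slco1a4 read 322, 478, 346, 270 and 300 CPM in EC controls, 15.6 to 43.6 in pericyte controls and 2.49 to 11.7 in astrocyte controls. Slco1c1 read 453, 463, 356, 321 and 386 CPM in EC controls, 27.3 to 55.4 in pericyte controls and 72.3 to 97.7 in astrocyte controls. Astrocytes thus ranked above pericytes for Slco1c1 and below them for Slco1a4, with no overlap of libraries in either case. Neither exceeded 5.47 CPM in an OPC control. Of the 50-base stretches of Slco1a4, 2.73% recur in Slco1a5, Slco1a1 or Slco1a6, so a small share of its reads cannot be assigned.

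The amino acid carriers differed in breadth. Slc7a5 (chromosome 8, GRCm38 121881150 to 121907694, minus strand) was at 279 to 346 CPM in EC controls, 22.7 to 88.3 in pericyte, 38.0 to 73.4 in OPC, 61.2 ± 13.5 (SD, n = 6) in astrocyte and 0.116 to 246 in microglia P2 controls. Slc38a5 (chromosome X, GRCm38 8271133 to 8280179, plus strand) was at 36.1 to 148 CPM in EC controls and at no more than 2.63 CPM in any control library of the other types. EC controls differed from each other by more for Slc38a5 (SD 45.1 on a mean of 78.0 CPM) than for Slc7a5 (SD 27.4 on 320).

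Of the efflux pumps, Abcb1a (chromosome 5, GRCm38 8660077 to 8748575, plus strand) stood at 97.5, 104, 73.0, 74.0 and 99.4 CPM in EC controls, at 1.6 to 6.98 CPM in pericyte controls and at no more than 1.73 CPM in any other control. Its value is uncertain, because 18.6% of its 50-base stretches recur in other genes, mostly Abcb1b, and an opposite-strand gene covers 10.1% of its exon bases. Abcg2 (chromosome 6, GRCm38 58584523 to 58695676, plus strand) was broader. It read 192, 220, 170, 169 and 228 CPM in EC controls, 5.1 to 125 in microglia P2 controls (median 68.6), 29.3 to 39.8 in OPC controls, 17.8 to 88.7 in pericyte controls and 5.03 to 9.91 in astrocyte controls. Microglia held Abcb1b, the paralog, at 83.9 ± 25.3 CPM (n = 8) while Abcb1a had 9 counts over the same 8 libraries.

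**Figure D2:**
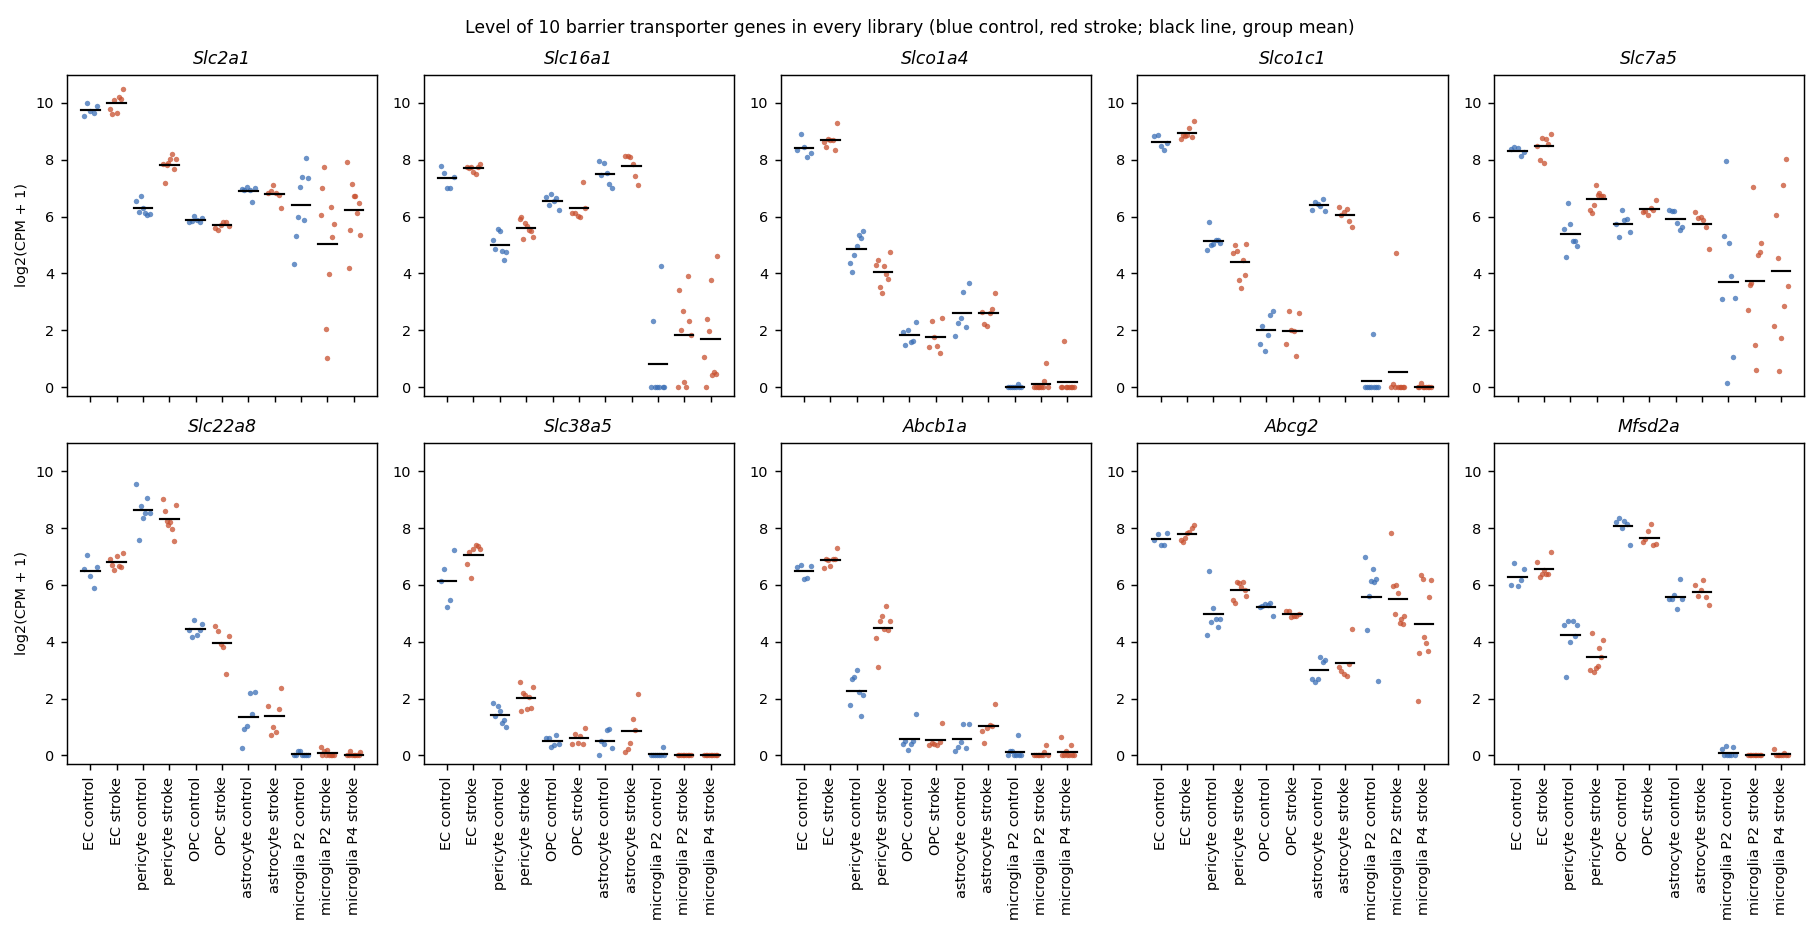
Level of each transporter gene in all 77 libraries, as log2(CPM + 1), by cell type and condition, with CPM scaled within each cell type. Points are libraries, blue for control and red for stroke, and black lines are group means of the log2 values. EC libraries are highest for 7 genes, pericyte libraries for Slc22a8 and OPC libraries for Mfsd2a, and in pericytes stroke and control do not overlap for Slc2a1 and Abcb1a.

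Over the 11 group means, the genes most like the mean profile of the members, among 13019 genes, were Pomc (Pearson r = 0.985), Pvalb (0.984), Egfl7 (0.980), Tdrp (0.980) and Ism1 (0.980). Egfl7 is made by endothelial cells. Tdrp stood at 68.6 ± 10.4 CPM in EC controls and 13.3 ± 2.36 in pericyte controls. For single members the nearest were Acer2 for Slco1a4 (0.996), Grrp1 for Slc38a5 (0.997), Sox7 for Slc2a1 (0.962), Hspa12b for Abcb1a (0.989), Shroom4 for Slc7a5 (0.989) and Dnah1 for Slco1c1 (0.993). Slc22a8 was nearest to Ebf1 (0.996), which stood at 94.2 ± 22.7 CPM in pericyte controls and 23.5 ± 6.54 in EC controls. Mfsd2a was nearest to Syt11 (0.994), at 2709 ± 138 CPM in OPC controls and 1079 ± 66.9 in EC controls. Slc16a1 was nearest to Ndufc2 (0.993) and Abcg2 to Vapb (0.907). These correlations rest on 11 points that share 5 count tables and describe the profiles only.

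Stroke and control were then compared within each cell type. The clearest change of the transporters was in pericyte libraries, where glucose, lactate and amino acid carriers and Abcb1a were higher after stroke and the carriers Slco1a4, Slco1c1 and Mfsd2a were lower. edgeR called 5 members higher and 3 lower in pericytes, against a background of 28.7% of 21694 genes, 15.9% higher and 12.8% lower. The groups did not overlap for 2 of the 10, against 5.47% of all genes. Of the 8 calls, those of Slc2a1, Abcb1a, Slc7a5 and Slco1a4 held in every alternative run, while those of Slc16a1, Slc38a5, Slco1c1 and Mfsd2a each ended in some. The plot of fold changes shows all members in 4 cell types.

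**Figure D3:**
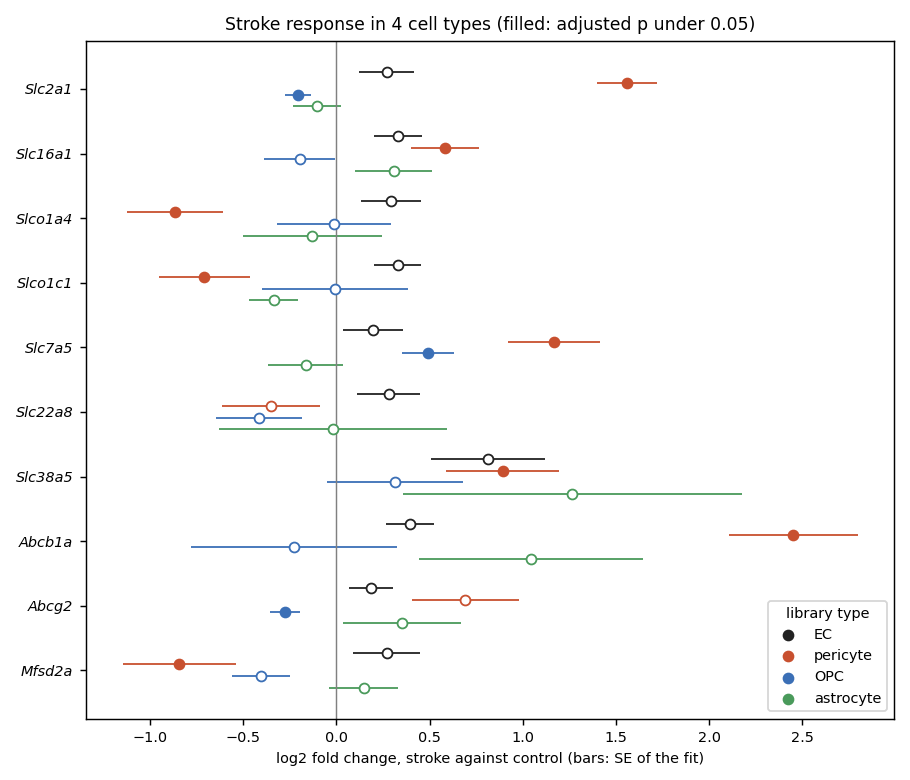
Log2 fold change of each transporter gene, stroke against control, in EC, pericyte, OPC and astrocyte libraries, with bars of 1 SE from the edgeR fit. Filled points passed an adjusted p of 0.05. Pericyte values run from -0.87 (Slco1a4) to 2.45 (Abcb1a), while all 10 EC values lie above 0 and are open.

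Slc2a1 ran from 65.4 to 105 CPM (median 70.4) in the 7 pericyte controls and from 143 to 291 CPM (median 233) in the 8 stroke libraries. All stroke libraries lay above all controls. The level was 2.95-fold higher (log2 1.56 ± 0.16, edgeR adjusted p = 1.33e-05, 8 of 8 above the control median). Abcb1a ran from 1.6 to 6.98 CPM (median 3.75) in controls and from 7.74 to 37.6 CPM (median 23.1) after stroke, again without overlap, and was 5.47-fold higher (2.45 ± 0.35, adjusted p = 0.000177). At its highest it reached less than the lowest EC control, 73.0 CPM. Slc7a5 ran from 22.7 to 88.3 CPM (median 34.6) in controls and from 69.7 to 137 CPM (median 104) after stroke, 2.25-fold higher (1.17 ± 0.25, adjusted p = 0.00288), with overlap through pericyte control 8 alone.

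Slc16a1 was higher in pericyte stroke libraries (36.0 to 62.9 CPM against 21.4 to 46.3 CPM, log2 0.58 ± 0.18, edgeR adjusted p = 0.0257). Slc38a5 was 1.86-fold higher at a low level, 1.94 to 5.03 CPM against 0.983 to 2.63 CPM (0.89 ± 0.30, adjusted p = 0.0356). Both had 8 of 8 stroke libraries above the control median, and both groups overlapped. Both calls ended without control 11, 14 or 15, among other single libraries (adjusted p from 0.0516 to 0.074 over those that ended them). Control 11 and control 15 were the most alike pericyte controls, with a mean chi-square per gene of 17.1 against 133 for the next pair. This is above sampling noise, and they were kept as 2 libraries. With these summed to 1 library, 3 members stayed higher and 1 lower, while calls over all genes went from 6227 to 5026.

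Slco1a4 fell in pericyte libraries, from 15.6 to 43.6 CPM (median 30.1) in controls to 9.06 to 25.9 CPM (median 16.6) after stroke. The stroke level was 0.549 of the control level (log2 -0.87 ± 0.26, edgeR adjusted p = 0.0191), and all 8 stroke libraries lay below the control median although the ranges overlapped. Slco1c1 read 27.3 to 55.4 CPM (median 32.3) in controls and 10.3 to 31.9 CPM (median 23.1) after stroke (-0.71 ± 0.24, adjusted p = 0.0381). Mfsd2a read 5.74 to 25.7 CPM (median 22.9) in controls and 6.66 to 18.8 CPM (median 8.98) after stroke (-0.84 ± 0.30, adjusted p = 0.0467). Here too 8 of 8 stroke libraries were below the control median for each gene, and the ranges overlapped.

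Abcg2 and Slc22a8 were not called in pericytes. Abcg2 had values of 17.8 to 88.7 CPM (median 26.5) in controls and 40.1 to 68.3 CPM (median 57.1) after stroke (log2 0.69 ± 0.29, edgeR adjusted p = 0.0804). Its control maximum, 88.7 CPM, was pericyte control 6, the control with the most ependymal and choroid plexus markers. The next highest control was at 35.3 CPM. These markers were not confined to control 6, as they reached 2066 CPM among the pericyte stroke libraries. Without control 6 Abcg2 was called higher (1.13 ± 0.17, adjusted p = 0.0003). Slco1c1 also had its control maximum there, 55.4 CPM, and its fall was not called without it (-0.57 ± 0.24, adjusted p = 0.077). The part of ependymal and choroid plexus RNA in the Abcg2 and Slco1c1 values was not tested. Without control 6, 6 members were higher and 2 lower, while calls over all genes went from 6227 to 7365. Slc22a8 ran from 189 to 755 CPM in controls and from 187 to 514 CPM after stroke (-0.35 ± 0.26, adjusted p = 0.324).

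Markers of other cells moved in the same pericyte libraries. Endothelial markers summed to 348 to 691 CPM in controls and 457 to 866 CPM after stroke, with 2 of 14 higher, 1 lower and 11 not called. Of the 14, 7 had a log2 fold change above 0 (median -0.02), so the markers behind this sum did not move together. Within that list Cdh5 was 4.99-fold higher and Flt1 rose by 1.34 on the log2 scale, Pecam1 was lower (-0.97, edgeR adjusted p = 0.0361), and Cldn5, the main endothelial claudin, stood at 13.6 and 16.0 CPM in stroke and control libraries (adjusted p = 0.631). As a share of the summed endothelial markers of the same library, Slc2a1 was 10.2 to 19.6% in controls and 25.9 to 47.3% after stroke. Abcb1a was 0.265 to 1.52% and 1.69 to 6.11%. Neither pair of ranges overlapped, while the shares of Slco1a4, 2.26 to 11.8% and 1.22 to 4.67%, did. The plot of these shares shows 6 members.

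**Figure D4:**
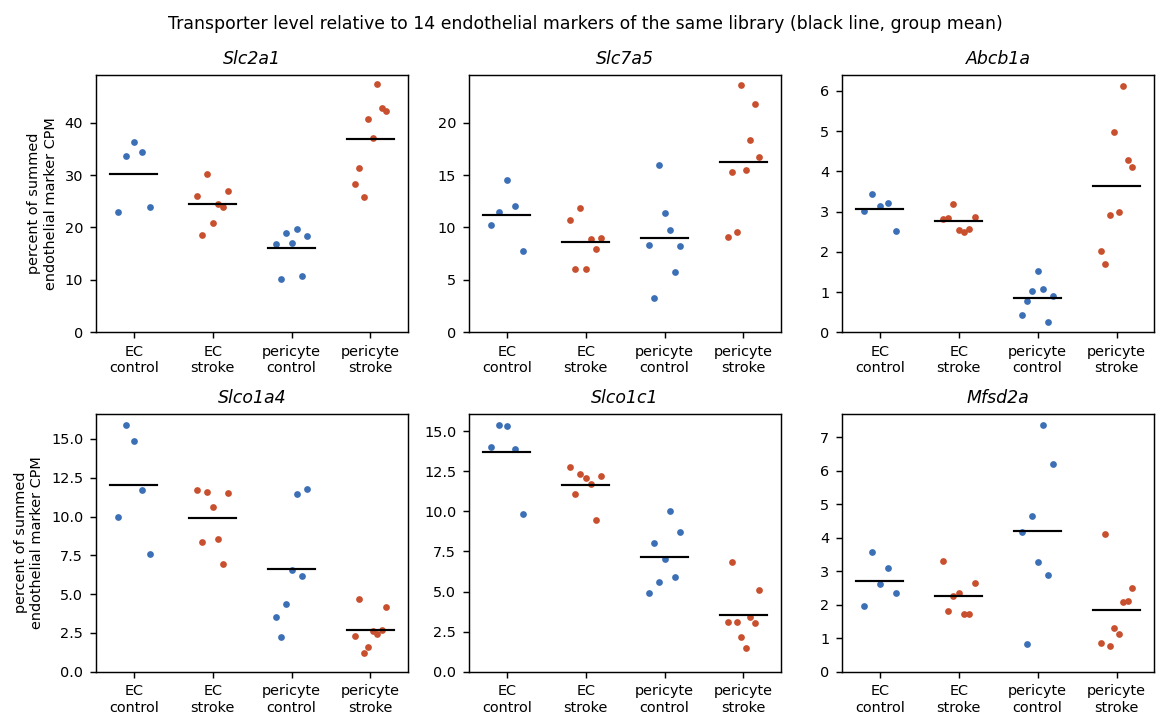
Level of 6 transporter genes as a percent of the summed CPM of 14 endothelial markers in the same library, for EC and pericyte libraries, with blue for control, red for stroke and black lines for group means. In pericytes the share of Slc2a1 was 16.0% in controls and 36.9% after stroke, and that of Slco1a4 6.59% and 2.71%. In EC the 2 groups overlap for each gene shown. The 14 markers did not move together in pericytes.

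Microglia markers were higher in pericyte stroke libraries for 12 of 12 genes, with sums of 433 to 3278 CPM in controls and 3679 to 8205 CPM after stroke. Microglia libraries themselves held these markers at 19674 CPM in P2 controls, beside 114 ± 83.8 CPM of Slc2a1 (n = 8) and 0.112 CPM of Abcb1a. Fibroblast markers were higher for 5 of 10 (Col3a1 323 to 3520 CPM, control to stroke), and mature oligodendrocyte markers lower for 10 of 12, with sums of 15976 to 54780 CPM in controls and 7857 to 35068 CPM after stroke. The part of microglia, fibroblast and oligodendrocyte RNA in the transporter values was not tested.

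In EC libraries no member was called. All 10 had a log2 fold change above 0, from 0.19 (Abcg2) to 0.82 (Slc38a5), with a median of 0.29 against 0.03 over all genes tested. A shift above 0 was not particular to the members. It was seen for 14 of 14 endothelial markers (median 0.50), 11 of 12 astrocyte markers (0.35) and 12 of 12 microglia markers (0.91). Neuron markers went the other way, with 1 of 12 above 0 (median -0.41). The background was 6.23% of 20995 genes (3.57% higher, 2.67% lower). For 0 members were the groups apart, against 3.85% of all genes. An unadjusted p under 0.05 was reached by Abcb1a, Slc38a5, Slco1c1 and Slc16a1, and DESeq2 called Abcb1a. EC libraries numbered up to 6 were deeper (123424129 to 142944063 counts) than those numbered above 6 (57569368 to 80697263). Within the deeper libraries, 6 members were above 0 and 4 below (-0.12 to 0.40), and within the others all 10 were above 0 (0.31 to 1.08). No member was called in either class, where 0 of all genes were called.

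Abcb1a read 97.5, 104, 73.0, 74.0 and 99.4 CPM in EC controls and 94.5 to 155 CPM (median 119) after stroke (log2 0.40 ± 0.13, edgeR adjusted p = 0.0802, 6 of 7 above the control median). Slc38a5 read 69.9, 92.7, 36.1, 43.4 and 148 CPM in controls and 75.6 to 169 CPM (median 152) after stroke (0.82 ± 0.31, adjusted p = 0.127). Controls 5, 3 and 11 overlapped the stroke range for Abcb1a, and controls 5 and 11 for Slc38a5. Slc38a5 was called without control 11 (1.18, adjusted p = 0.0261), and Slc16a1 without control 3 (0.45, adjusted p = 0.0459). Slc2a1 ran from 777 to 1454 CPM after stroke (median 1107) against 745 to 1014 CPM in controls (0.27 ± 0.15, adjusted p = 0.296). Endothelial markers were higher for 5 of 14 genes, from a sum of 2963 ± 681 to 4289 ± 714 CPM. The share of Slc2a1 in that sum was 23.0 to 36.3% in controls and 18.5 to 30.2% after stroke.

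The response to stroke itself was compared between cell types in a single edgeR fit of the 51 libraries other than microglia. It differed among the 4 types for Slc2a1 (adjusted p = 3.41e-08), Abcb1a (0.00428), Slc7a5 (0.0114) and Mfsd2a (0.0377), 4 of 10 members against a background of 14.3%. The call of Mfsd2a ended without EC control 3, 7 or 9 (adjusted p from 0.0555 to 0.0604). The pericyte response minus the EC response was called for 6 members (background 13.3%, with 7.1% higher and 6.18% lower). It was higher in pericytes for Abcb1a by 2.05 ± 0.53 on the log2 scale (adjusted p = 0.00818), for Slc2a1 by 1.28 ± 0.21 (2.9e-05) and for Slc7a5 by 0.96 ± 0.31 (0.0328). It was lower in pericytes for Slco1a4 (-1.18 ± 0.39, 0.0351), Mfsd2a (-1.14 ± 0.34, 0.0207) and Slco1c1 (-1.06 ± 0.37, 0.0475). These 3 differences, and that of Slc7a5, each missed the threshold without some single EC control, and without EC control 7 all 3 lower calls ended. With the library number as a replicate block, fewer members were called for the difference among the 4 types. The 3 lower pericyte calls also ended in that run (counts in the closing section).

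In OPC libraries Slc7a5 was higher after stroke and Slc2a1 and Abcg2 were lower, by small amounts, 3 of 10 members against a background of 20.5% of 18167 genes (11.7% higher, 8.77% lower). Slc7a5 ran from 38.0 to 73.4 CPM (median 55.2) in controls and from 65.0 to 95.3 CPM (median 73.0) after stroke (log2 0.49 ± 0.14, edgeR adjusted p = 0.0211), with all 6 stroke libraries above the control median. Slc2a1 ran from 54.6 to 64.1 CPM in controls and from 45.8 to 55.5 CPM after stroke (-0.21 ± 0.07, adjusted p = 0.0456). Abcg2 ran from 29.3 to 39.8 CPM in controls and from 28.2 to 33.0 CPM after stroke (-0.28 ± 0.08, adjusted p = 0.0285). Ranges overlapped for all 3 (groups apart for 11.1% of all genes). Both lower calls ended with library totals in place of TMM factors (-0.09 and -0.16). Without stroke library 10 all 3 calls ended (adjusted p = 0.0543 for Slc7a5, 0.0851 for Slc2a1 and 0.0555 for Abcg2), and the lower calls also ended without other single libraries, 8 in all for Slc2a1 and 6 for Abcg2.

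Mfsd2a in OPC ran from 170 to 322 CPM (median 289) in controls and from 169 to 280 CPM (median 187) after stroke (log2 -0.40 ± 0.16, edgeR adjusted p = 0.0832), with 6 of 6 stroke libraries below the control median. It was called lower without stroke library 5 or without control library 12 (-0.51 in both, adjusted p from 0.0107 to 0.0283). Slc16a1 had 1 stroke library, number 8, at 149 CPM and the others at 62.3 to 77.2 CPM, against 75.1 to 109 CPM in controls, and was called lower only without that library (-0.47, adjusted p = 0.00285). In these OPC libraries mature oligodendrocyte markers were lower for 12 of 12 genes, with sums of 99760 to 114223 CPM in controls and 58127 to 79134 CPM after stroke, and microglia markers were higher for 12 of 12. Their part in the member values was not tested.

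Astrocyte libraries gave no call among the 10 members (background 10.3% of 18796 genes, 5.63% higher and 4.68% lower, with groups apart for 7.38%). The smallest p was that of Slco1c1, the thyroxine carrier, at 72.3 to 97.7 CPM in controls and 48.4 to 80.0 CPM after stroke (log2 -0.34 ± 0.13, edgeR adjusted p = 0.129). All 6 stroke libraries were below the control median, and the ranges overlapped. Slc16a1 was at 128 to 246 CPM in controls and 137 to 282 CPM after stroke (0.31 ± 0.21, adjusted p = 0.417). An unadjusted p under 0.05 was reached by Slco1c1 alone, and DESeq2 called 0 members.

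In microglia only Slc2a1, Slc16a1, Slc7a5 and Abcg2 passed the filter on low counts, and none was called in P2 stroke against P2 control or in P4 stroke against P2 stroke, which share the P2 stroke libraries. edgeR called 1 of 13225 genes in each, Preb and Gpr165, a background of 0.00756%, with 1339 and 1526 genes at an unadjusted p under 0.05. DESeq2 called 304 and 218 genes and 0 members. Slc2a1 ran from 19.3 to 266 CPM in P2 controls (median 96.5), from 1.03 to 215 CPM after P2 stroke (52.2) and from 17.2 to 244 CPM after P4 stroke (88.7). Abcg2 had medians of 68.6, 30.7 and 17.0 CPM in the same order. The ranges of the 3 groups overlapped widely for both genes. At these depths the other 6 members had 1 to 24 counts each over the 8 P2 controls, and Slc38a5 had 0 counts over the 18 stroke libraries. Floors for a count of 0 were 0.0375 CPM over the P2 stroke group and 0.0372 CPM over the P4 group, for counting error only.

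Other barrier genes were read from 3 further lists. Of 21 other barrier transporters and receptors, 1 was higher and 0 lower in EC, 3 and 2 in pericytes, 5 and 1 in OPC, and 2 and 3 of 20 tested in astrocytes. The shares of all genes called in these comparisons were 6.23%, 28.7%, 20.5% and 10.3%, and the list's count in pericytes was not above that background. Slco2b1, an organic anion carrier, was called higher in each of these 4 types. It stood at 96.1 ± 18.9 CPM after stroke and 56.8 ± 7.58 in control EC (log2 0.76 ± 0.13, edgeR adjusted p = 0.0123), and was 2.24-fold higher in pericytes, 6.34-fold in OPC and 2.36-fold in astrocytes. Microglia P2 controls held Slco2b1 at 1475 ± 808 CPM, and microglia markers were higher after stroke for 7 of 12 genes in EC, 12 in pericytes, 12 in OPC and 11 in astrocytes. Their part in the Slco2b1 values was not tested. Abcb1b, also held by microglia, was higher in pericytes (4.72 to 10.3 CPM, control to stroke), OPC and astrocytes.

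Of 12 transporter partners and paralogs, Slc16a3 (MCT4, the lactate exporter of glycolytic cells) had the largest fold. In pericytes it went from 7.28 ± 4.95 CPM to 182 ± 58.1 CPM, 25.1-fold higher (log2 4.65 ± 0.37, edgeR adjusted p = 3.23e-06), with no overlap of libraries. It was 3.51-fold higher in astrocytes (2.77 to 9.71 CPM) and was not called in EC (7.03 and 6.49 CPM, stroke and control) or OPC. Microglia held it at 16.4 ± 14.8 CPM in P2 control, 37.9 ± 29.9 in P2 stroke and 75.8 ± 102 in P4 stroke libraries, and the part of microglia RNA in the pericyte value was not tested. Bsg (basigin, the chaperone of both lactate carriers) was 2.25-fold higher in pericytes and 1.38-fold higher in EC. Slc2a3 (GLUT3, known from neurons) was lower in EC (-0.48) and astrocytes (-0.92) and higher in pericytes (0.63), and neuron markers were lower in EC for 6 of 12 genes, in pericytes for 10 and in astrocytes for 8. Slc3a2, the heavy chain that pairs with Slc7a5, was called in none of the 4 types (0.10 ± 0.18 in pericytes, adjusted p = 0.693).

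Of 7 caveolae and transcytosis genes, 1 was higher in EC (Cav1, 162 to 246 CPM, log2 0.60 ± 0.15, edgeR adjusted p = 0.0335) and 1 in pericytes (Cavin3, 0.89 ± 0.23, adjusted p = 0.00923). In OPC 3 were higher (Plvap, Cavin1 and Ehd2, at 4.82 to 8.88 CPM after stroke) and 1 was lower, and in astrocytes 0 of 7 were called. Against the shares of all genes called, 6.23% in EC, 28.7% in pericytes, 20.5% in OPC and 10.3% in astrocytes, the pericyte count was below its background. Median log2 fold changes of the list were 0.44 in EC, 0.33 in pericytes, 0.26 in OPC and 0.54 in astrocytes, beside -0.08 to 0.03 over all genes in these comparisons.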

How the data were processed

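RNA-seq counts of 77 mouse white matter libraries were analysed. Per the labels' protocols, RNA was taken with NucleoSpin RNA XS and amplified with a SMART-Seq v4 kit. The authors deposited whole-number counts of reads per Ensembl gene, without normalization, and the submitters' processing notes list bcl2fastq 2.20, STAR, HTSeq and GRCm38. Sample columns of 4 of the 5 tables have names that begin with hisat, so which aligner made these counts is not settled, which bears on reads shared between genes such as Abcb1a and Abcb1b. The labels used here do not state strand or mate handling, so overlapping and antisense genes cannot be told apart. All columns were mapped to samples by name.

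Each comparison used edgeR 4.0.16 in R 4.3.3 (quasi-likelihood test, TMM factors, filterByExpr, Benjamini-Hochberg adjustment over all genes tested, adjusted p under 0.05 called). Fold changes are log2 with SE from the fit. The 3 microglia groups shared 1 fit. CPM used TMM-scaled totals within each table. Alternatives were other scalings, no filter, DESeq2 1.42.0, single libraries left out, EC depth classes, summed pericyte controls and a block on library number. Gene coordinates and exon lengths came from GENCODE M21 (GRCm38) and promoters from RefSeq. Fits were tested on simulated data. Members and gene lists were chosen with earlier results of these data known. All members are named, with at most 3 called genes of each other list per comparison by smallest p, the nearest profile of each member and the 5 nearest to their mean; Slc22a6, Slc3a2, Abcb1b in pericytes and OPC, and the marker genes were named after their values were seen.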

Additional observations from a re-analysis of the deposited data

Results flagged for a closer look

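Of 92 groups of 4 to 10 libraries checked for a member, 14 held a library set apart from the others of its group. The rule was a gap above the 95% critical value of Dixon's test, which normal values give in about 1 in 20 groups. CPM can be skewed and some were very low, so that rate need not hold here and no excess is read from the 14. In pericyte control 6, Abcg2 was at 88.7 CPM (next 35.3) and Slco1c1 at 55.4 CPM (next 35.6). In EC stroke 14, Slco1a4 was at 623 CPM (next 425). In OPC control 12, Abcb1a was at 1.73 CPM (next 0.419) and Abcg2 at 29.3 CPM (next 36.4). In OPC stroke 8, Slc16a1 was at 149 CPM (next 77.2), and in OPC stroke 10, Abcb1a was at 1.2 CPM (next 0.402). In astrocyte control 9, Slc2a1 was at 91.4 CPM (next 121), and in astrocyte stroke 12, Abcb1a was at 2.52 CPM (next 1.08) and Abcg2 at 20.7 CPM (next 8.38). In microglia, Slc16a1 was at 18.2 CPM in P2 control 12 (next 4.04), Slc7a5 at 246 CPM in P2 control 4 (next 39.1) and at 130 CPM in P2 stroke 9 (next 32.6), and Abcg2 at 224 CPM in P2 stroke 2 (next 62.2).

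The response to stroke differed between pericytes and EC for 6 members by the edgeR test of the difference itself. On the log2 scale, pericyte minus EC, it was 2.05 for Abcb1a, 1.28 for Slc2a1, 0.96 for Slc7a5, -1.06 for Slco1c1, -1.14 for Mfsd2a and -1.18 for Slco1a4. Those of Slc7a5, Slco1c1, Mfsd2a and Slco1a4 each missed the threshold without some single EC control. With the library number as a replicate block, the lower calls also ended. No pericyte library was left out of this fit. Cell type and count table cannot be told apart in these differences.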

How the results depend on the processing

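Of 1430 values of single members under the alternatives, 1324 kept their call or stayed uncalled, 95 lost their call, 11 gained one and 0 called values reversed. Values uncalled in both runs count as kept even where their sign changed, as for 4 members within the deeper EC libraries. With library totals alone, 1 member was higher in EC, 3 were higher in pericytes and 0 lower in OPC, and DESeq2 gave 1 higher in EC. Without the filter on low counts, 1 member was lower in pericytes and 0 in OPC. With pericyte controls 11 and 15 summed, 3 were higher and 1 lower, with 5026 against 6227 genes called in all. Leaving out single libraries gave 0 to 1 higher in EC, 3 to 6 higher and 1 to 3 lower in pericytes, and 0 to 1 higher and 0 to 3 lower in OPC. Calls over all genes in these runs numbered 138 to 1493 in EC, 4942 to 7365 in pericytes and 3040 to 3936 in OPC. Leaving out single EC controls gave 3 to 4 members for the 4-type difference, and 2 to 3 higher and 0 to 3 lower for pericyte minus EC.

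No paired analysis was possible within a cell type because control and stroke libraries share no number. Across types, same-numbered libraries did not vary together (34 pairs, r from -0.198 to 0.152, 3 above 0.1). With the library number as a replicate block, 1 member was called for the 4-type difference, and 0 were lower for pericyte minus EC, with 575 against 3620 and 561 against 3353 genes in all. Block counts of control contrasts were 2383 against 5553 (pericyte) and 843 against 2769 (astrocyte).

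Over all genes, EC calls numbered 1309, and 862 without the filter, 2844 with DESeq2, 138 without control 7, 195 without control 9, 594 without stroke 8, 748 without stroke 10 and 0 within either depth class. In microglia, calls numbered 0 to 15 without single libraries in P2 stroke against control and 1 to 3 in P4 against P2 stroke. Without 4 libraries with few genes (chosen after seeing the data) 0 genes were called in either microglia comparison, and without the filter 2 and 52. With library totals, the share of calls that were higher went from 57.2 to 78.7% in EC, 57.2 to 80.6% in OPC, 55.2 to 38.0% in pericytes and 53.5 to 27.1% for pericyte minus EC. In control libraries it went from 37.3 to 24.0% for EC against pericytes, 63.5 to 73.9% against OPC and 50.1 to 60.3% against astrocytes. The median of all genes went from -0.08 to -0.28 in pericytes, -0.01 to 0.11 in OPC, -0.18 to -0.44 for pericyte minus EC, and for EC against pericytes, OPC and astrocytes from -0.19 to -0.51, 0.08 to 0.36 and -0.05 to 0.13. The causes were not tested. Low counts limit 6 members in microglia.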
